A study of Homo sapiens with 21 samples.

Results

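Acetylation of histone H3 at lysine 27 (K27ac) was compared between melanoma lines grouped here as melanocytic, 501mel and SKMEL-5, and lines grouped as undifferentiated, SKMEL-147 and A375-GFP. A melanocytic-side region was a merged K27ac region that both 501mel and SKMEL-5 listed and that neither SKMEL-147 nor A375-GFP listed, with 1 bp counting as overlap. An undifferentiated-side region was the reverse. Of 192984 merged regions, 4047 (2.10%) lay on the melanocytic side and 12430 (6.44%) on the undifferentiated side. The lists differed in length, so each was also held to its 42115 strongest regions, the length of the shortest list. Of 102485 merged regions at equal length, 5392 (5.26%) were then melanocytic-side and 5133 (5.01%) undifferentiated-side.

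GEO's labels give all of these lines as melanoma from skin, and the melanocytic and undifferentiated names are not in the labels. The series is about HOXD13, a homeobox transcription factor that was silenced or overexpressed in some of its cultures. The titles of the 4 K27ac libraries compared here name no HOXD13 hairpin and no HOXD13 construct; A375-GFP names GFP, a fluorescent protein, and the labels say no more of it. Cultures were kept for 72 h, some with doxycycline at 1 µg/ml, and the labels do not say which. Nor do they tie a library to ChIP-seq or CUT&Tag. Each line gave 1 K27ac library, so each side is 2 lines. A comparison of 2 lines with 2 cannot give an exact two-sided permutation p below 0.333, so no test of the sides was run. Intervals beside shares are 95% Wilson intervals over regions and cover counting error alone. Chromatin accessibility (ATAC) lists of the 4 lines, CTCF lists of 501mel and SKMEL-5, a list of HA-tagged HOXD13 in A375 and 4 further A375 K27ac lists were not used to choose the regions.

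K27ac marks active promoters and enhancers and is laid down by the acetyltransferases p300 and CBP. Melanoma cells that keep a melanocyte program depend on MITF and SOX10, which bind near pigment genes. Cells that have lost that program depend more on AP-1 and TEAD factors and express adhesion, matrix and inflammatory genes. A listed region shows where acetylation passed the authors' peak threshold in a line; a gene is called acetylated below where a region overlaps the stated window, and this says nothing of its RNA.

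The microRNAs whose hairpins lie in or beside these regions are shown first, because their targets depend on the seed, bases 2 to 8 of the mature strand, printed in capitals (RefSeq, GRCh38.p14). miR-221-3p and miR-222-3p, which share the seed GCUACAU and are known for repressing the KIT receptor, lay in an undifferentiated-side region, as did miR-193a, let-7a-2 and miR-125b-1. miR-100, from the same transcript as let-7a-2, lay within 5 kb of such a region. The hairpins of miR-23b, miR-27b and miR-24-1 lay in a melanocytic-side region at equal length.
miR-221-3p: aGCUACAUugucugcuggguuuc
miR-222-3p: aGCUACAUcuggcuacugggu
miR-193a-3p: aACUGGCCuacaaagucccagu
let-7a-5p: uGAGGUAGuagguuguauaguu
miR-100-5p: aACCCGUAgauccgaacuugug
miR-125b-5p: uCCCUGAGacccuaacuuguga
miR-23b-3p: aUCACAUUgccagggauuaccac
miR-27b-3p: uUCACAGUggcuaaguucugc
miR-24-3p: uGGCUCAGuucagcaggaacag

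Promoters are shown for 3 genes a side whose acetylation differed and which hold a searched motif in the 250 bases before the start (RefSeq, GRCh38.p14). Capitals mark matches on either strand: CATGTG (read as CACATG on the other strand), the core of the M-box that MITF binds; ACAAAG, a SOX match (CTTTGT on the other strand); TGANTCA, the AP-1 motif; and GGAATG, the TEAD motif. TYRP1 and TYR, both melanin enzymes, each hold a pair of M-box cores, and P2RX7, an ATP-gated channel, holds an overlapping pair. S100A16, a calcium-binding protein, has a TEAD match. ITGA5, the fibronectin receptor subunit, has a TEAD match and an AP-1 match that runs over the start, so its last base is not printed. PLAUR, the urokinase receptor, has an AP-1 match. ITGA5 and PLAUR were chosen after the motif counts had been seen. The printed promoters do not stand for all of a side. Among the strongest promoter genes not printed, MLANA held no match. On the melanocytic side RAD51B held a TEAD match and NAT8 a SOX and a TEAD match. On the undifferentiated side TRHDE held CATGTG and a TEAD match.
TYRP1 (chr9:12693135-12693384, plus strand): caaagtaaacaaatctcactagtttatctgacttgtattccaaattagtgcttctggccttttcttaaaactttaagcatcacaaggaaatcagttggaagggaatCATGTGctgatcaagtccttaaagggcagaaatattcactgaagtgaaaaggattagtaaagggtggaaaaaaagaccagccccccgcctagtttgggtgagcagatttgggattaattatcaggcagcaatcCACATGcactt
TYR (chr11:89177625-89177874, plus strand): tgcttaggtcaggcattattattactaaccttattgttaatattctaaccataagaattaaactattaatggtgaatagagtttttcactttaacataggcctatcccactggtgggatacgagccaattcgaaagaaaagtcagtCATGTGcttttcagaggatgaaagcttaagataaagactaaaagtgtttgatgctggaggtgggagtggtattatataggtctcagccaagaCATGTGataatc
P2RX7 (chr12:121132626-121132875, plus strand): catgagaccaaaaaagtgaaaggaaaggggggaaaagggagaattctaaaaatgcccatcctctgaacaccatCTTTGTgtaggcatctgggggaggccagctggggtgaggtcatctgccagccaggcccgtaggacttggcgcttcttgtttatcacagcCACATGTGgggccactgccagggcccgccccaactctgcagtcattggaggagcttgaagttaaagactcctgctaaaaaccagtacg
S100A16 (chr1:153613138-153613387, minus strand): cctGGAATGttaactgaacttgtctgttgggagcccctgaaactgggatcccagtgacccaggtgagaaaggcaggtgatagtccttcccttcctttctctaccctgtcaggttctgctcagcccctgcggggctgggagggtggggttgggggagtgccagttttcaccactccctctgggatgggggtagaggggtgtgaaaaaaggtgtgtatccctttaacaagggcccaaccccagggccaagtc
ITGA5 (chr12:54419267-54419516, minus strand): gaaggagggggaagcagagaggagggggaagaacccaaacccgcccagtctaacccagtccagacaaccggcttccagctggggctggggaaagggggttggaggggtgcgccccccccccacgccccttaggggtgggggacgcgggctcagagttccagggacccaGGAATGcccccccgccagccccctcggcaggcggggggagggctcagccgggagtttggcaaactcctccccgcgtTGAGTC
PLAUR (chr19:43670170-43670419, minus strand): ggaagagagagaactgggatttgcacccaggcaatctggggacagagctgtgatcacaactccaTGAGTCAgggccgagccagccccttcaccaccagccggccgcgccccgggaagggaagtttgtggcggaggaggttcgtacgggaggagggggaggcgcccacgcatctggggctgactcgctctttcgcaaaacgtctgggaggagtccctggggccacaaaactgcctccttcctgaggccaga

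The K27ac lists held 55889 regions in 501mel, 42115 in SKMEL-5, 58855 in SKMEL-147 and 139985 in A375-GFP, which covered 46.9, 50.6, 52.3 and 105.3 Mb in the same order. A375-GFP was therefore the longest list. With A375-shNTC replicate 1 (85977 regions) in its place, the undifferentiated side was still the larger, at 11850 regions against 4266. With replicate 2 (80242 regions) the counts were 11485 and 4449. The part of list length in the larger side was not tested. At equal length the melanocytic side was slightly the larger. Leaving out a line loosens the rule: the count then ran from 4771 (without SKMEL-147) to 29159 (without SKMEL-5) on the melanocytic side, and from 14205 (without 501mel) to 101109 (without SKMEL-147) on the undifferentiated side. A further 5585 merged regions (3892 at equal length) were in all 4 lists. The 4 lists also overlapped across the sides: at equal length 4552 regions were in SKMEL-5 and A375-GFP alone, against 871 in 501mel and SKMEL-147 alone. SKMEL-5 and A375-GFP were the pair with the most acetylated gene starts (45.1% and 51.2% of protein-coding genes, against 20.6% in 501mel and 18.6% in SKMEL-147), and the part of this in the cross-side overlap was not tested.

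Near the edge of the rule, 11296 regions in both melanocytic lists failed because at least 1 undifferentiated list held them. For 5008 of these it was A375-GFP alone and for 703 SKMEL-147 alone. On the other side 10860 regions failed, 1670 of them through 501mel alone and 3605 through SKMEL-5 alone. Few members were marginal: the 2 lists overlapped by under 50 bp in 62 melanocytic-side and 208 undifferentiated-side regions, and a region of the other side lay within 100 bp of 40 and 91 of them. Holding the lists to equal length removed weaker regions, so that 31.1% of the melanocytic-side regions at equal length overlapped a weaker region of the full A375-GFP list and 4.75% one of SKMEL-147. For the undifferentiated side 3.74% overlapped a weaker 501mel region; SKMEL-5 was the shortest list and lost none.

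Marker promoters fitted the names in part. Of 10 melanocytic markers, 7 were acetylated at the start in 501mel and 9 in SKMEL-5, against 1 in SKMEL-147 and 3 in A375-GFP. Of 10 undifferentiated markers, 1 was acetylated in 501mel and 4 in SKMEL-5, against 6 in SKMEL-147 and 7 in A375-GFP. Over all genes the acetylated share was 20.6% in 501mel, 45.1% in SKMEL-5, 18.6% in SKMEL-147 and 51.2% in A375-GFP. The 4 of 10 undifferentiated markers in SKMEL-5 were thus near its share over all genes. MLANA, TYR, TYRP1, SLC45A2 and GPR143 were acetylated in both melanocytic lines and in neither other line, and AXL, WNT5A and NT5E the other way round. SOX10, the neural crest factor that melanocytes keep, was acetylated in all 4 lines. The MITF start used here was acetylated in SKMEL-5 and A375-GFP, and those of SOX9, EGFR and TRPM1 in no line.

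Accessibility, which the rule did not use, followed the sides. ATAC regions overlapped 71.4% (95% interval 70.0 to 72.8) of the melanocytic-side regions in 501mel and 47.9% in SKMEL-5, against 32.7% in SKMEL-147 and 33.5% in A375-GFP. For undifferentiated-side regions the shares were 19.3% in 501mel and 13.1% in SKMEL-5, against 66.7% in SKMEL-147 and 59.8% in A375-GFP. Each side was thus most often open in its own 2 lines, and this held at equal length as well (75.2% and 51.6% against 38.3% and 42.6% for the melanocytic side, 28.0% and 20.4% against 83.6% and 80.8% for the undifferentiated side). Regions acetylated in all 4 lines were open in 81.4% to 93.9%. Those regions were wider, with a median of 3482 bp against 1494 bp on the melanocytic and 1202 bp on the undifferentiated side. Wider regions have more room for an overlap, and the part of width was not tested.

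The stricter pattern, open in both own lines and in neither other line, was met by 639 melanocytic-side regions (15.8%, interval 14.7 to 16.9) and 4298 undifferentiated-side regions (34.6%, 33.7 to 35.4). The opposite pattern was met by 22 (0.544%) and 7 (0.0563%). A further 18.8% of melanocytic-side and 8.07% of undifferentiated-side regions were open in all 4 lines, and 25.7% and 29.1% in none. The ATAC lists differed in length too, with 104442 regions in 501mel, 56333 in SKMEL-5, 163102 in SKMEL-147 and 118398 in A375-GFP. With each ATAC list held to 56333 regions the strict shares became 27.3% on the melanocytic side and 23.5% on the undifferentiated side, so their order turned round; it also did so without the SKMEL-147 K27ac list (13.8% and 10.2%).

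CTCF, the insulator protein, was mapped in the melanocytic lines alone. CTCF regions of 501mel overlapped 31.1% of the melanocytic-side regions and those of SKMEL-5 23.4%, and 17.7% met both. Among undifferentiated-side regions the shares were 3.74%, 4.95% and 2.37%, and among regions acetylated in all 4 lines 55.7%, 54.0% and 44.2%. A melanocytic-side region therefore met CTCF several times as often as a region acetylated in the other lines, in both CTCF lists and at equal length (34.5% and 26.4% against 4.99% and 6.31%). Without CTCF lists of SKMEL-147 or A375, binding in the undifferentiated lines was not measured. HOXD13-HA regions of A375 overlapped 5.19% of melanocytic-side and 12.7% of undifferentiated-side regions (6.57% and 16.4% at equal length), against 17.9% of regions acetylated in all 4 lines. For CTCF and HOXD13-HA too, the part of the greater width of regions acetylated in all 4 lines was not tested.

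The other A375 K27ac lists, 2 of a non-targeting hairpin (shNTC) and 1 each of the hairpins labelled shH2 and shH3, show how far the A375-GFP library stands for A375. Both shNTC lists held 15.0% of the melanocytic-side regions and 71.8% of the undifferentiated-side regions, and at equal length 27.3% and 92.6%. None of the 4 held 78.4% of melanocytic-side regions and 18.2% of undifferentiated-side regions. So most undifferentiated-side regions recurred in other A375 libraries, and a minority of melanocytic-side regions was acetylated in A375 cultures other than A375-GFP.

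**Figure D1:**
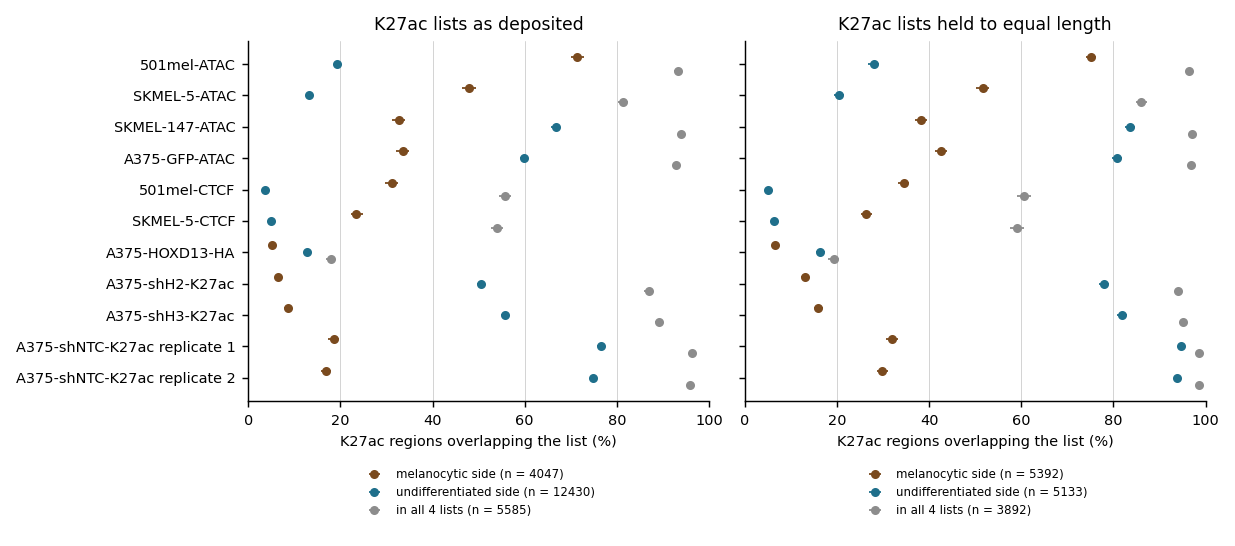
Share of melanocytic-side regions (brown), undifferentiated-side regions (blue) and regions in all 4 K27ac lists (grey) that overlap each list the rule did not use, in percent, with 95% Wilson intervals as bars; the left panel uses the K27ac lists as deposited and the right panel those held to equal length. Brown points lie right of blue ones for the ATAC and CTCF lists of 501mel and SKMEL-5, and left of them for every A375 and SKMEL-147 list.

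Most side regions lay away from gene starts. Within 2 kb of a start were 6.05% of melanocytic-side and 4.63% of undifferentiated-side regions, against 29.6% of the regions acetylated in all 4 lines. A further 54.1% and 59.6% lay inside gene bodies, and 39.9% and 35.8% between genes. The median distance to the nearest start was 45.5 kb on the melanocytic side and 40.1 kb on the undifferentiated side, and 30.5% and 25.4% lay over 100 kb away. Side regions also clustered: 42.0% of melanocytic-side and 62.3% of undifferentiated-side regions had another of their own side within 20 kb, and 7.17% and 2.75% had one of the other side. At equal length the own-side share was 45.1% on both sides, so the difference between the sides was seen in the deposited lists alone.

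A smaller set of genes differed at the promoter itself. At 212 protein-coding genes (1.06% of 19974) both melanocytic lines and neither other line had K27ac within 1 kb of the start. At 373 (1.87%) both undifferentiated lines and neither melanocytic line did. The RefSeq promoter table gave no start for 54 of the 212 and 126 of the 373, against 4162 of all 19974 genes. For these, K27ac near either gene end counted, so it need not lie at the promoter. At equal length the counts were 487 (2.44%) and 214 (1.07%), so which side had more promoter genes depended on list length; 182 of the 212 and 210 of the 373 were among those at equal length. In the ATAC lists, which were not used, the melanocytic-side promoters were open in 90.1% in 501mel and 75.5% in SKMEL-5, against 75.5% in SKMEL-147 and 78.8% in A375-GFP. The undifferentiated-side promoters were open in 48.3% in 501mel and 35.9% in SKMEL-5, against 84.2% in SKMEL-147 and 80.4% in A375-GFP. Over all genes the shares were 64.8%, 57.2%, 71.5% and 72.5% in 501mel, SKMEL-5, SKMEL-147 and A375-GFP. Melanocytic-side promoters were thus mostly open in each of the 4 lines, whereas undifferentiated-side promoters were less often open than the average gene in the melanocytic lines.

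The strongest melanocytic-side promoters joined pigment genes to genes of other roles. Of the genes below, RAB38 and SIRPA were among those without a start in the promoter table. MLANA, a melanosome protein, reached a fold over background, as the authors' peak caller gave it, of 32.3 in 501mel and 57.6 in SKMEL-5. TYRP1 had folds of 30.3 and 36.2 and TYR 22.6 and 30.3 in the same lines. RAB38, a small GTPase of melanosome traffic, had 17.0 and 28.4, and GPM6B, a membrane glycoprotein of glia, had 17.3 and 30.1. Outside pigmentation came RAD51B, a homologous recombination protein (25.7 and 57.6), SIRPA, the receptor for the "do not eat me" signal CD47 (13.8 and 66.2), P2RX7 (9.97 and 46.2), HEY1, a Notch target repressor (8.35 and 52.8), BBS5, a cilium protein (10.0 and 37.1), the acetyltransferase gene NAT8 (14.1 and 33.6) and the protease inhibitor gene PI15 (11.1 and 56.3). The MLANA, TYRP1 and TYR starts were open in both melanocytic lines and in neither other line, while those of GPM6B, BBS5, P2RX7 and RAB38 were open in all 4. SIRPA, RAB38, PI15 and P2RX7 were also acetylated in at least 1 A375-shNTC list, so for these the absence from A375-GFP did not extend to every A375 culture.

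The 12 strongest undifferentiated-side promoters belonged to genes of varied roles. IGFBP1, ITGA3, CCN1, ADAMTS4, ZBP1, GADD45A, PHLDA3 and KRT80 had no start in the promoter table, so K27ac near either gene end counted. IGFBP1, an insulin-like growth factor binding protein, had folds of 21.9 in SKMEL-147 and 24.0 in A375-GFP. ITGA3, a laminin receptor subunit, had 15.9 and 26.5, and MACC1, a regulator of the MET receptor gene, 17.7 and 22.8. CCN1, a matricellular target of YAP, had 16.5 and 14.0. The others were ADAMTS4, an aggrecan-cleaving protease (18.0 and 21.7), ZBP1, a sensor of Z-form nucleic acid (16.0 and 18.7), the peptidase gene TRHDE (15.9 and 26), the p53 targets GADD45A (15.4 and 18.1) and PHLDA3 (16.0 and 13.6), ROBO4, an endothelial guidance receptor (13.0 and 20.7), KRT80, a keratin (12.6 and 16.2), and S100A16 (12.3 and 15.3). All 12 held at equal length. In no line did ATAC lists hold the MACC1, ZBP1 or GADD45A windows, and CCN1 and ZBP1 were in none of the 4 other A375 K27ac lists.

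**Figure D2:**
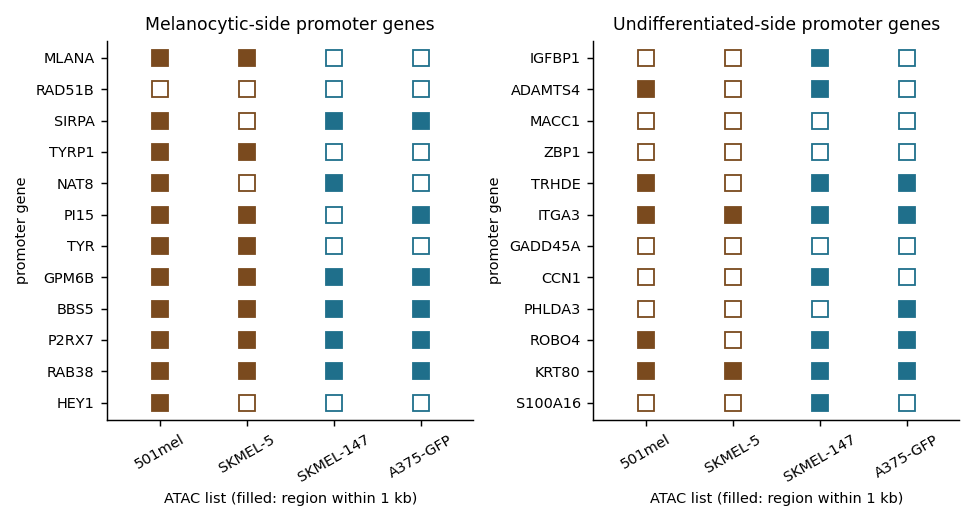
ATAC regions within 1 kb of the start of the 12 strongest promoter genes of each side, listed from strongest down, in the 4 lines. A filled square is a listed region and an open square is none. Either gene end counts where the promoter table gives no start. MLANA, TYRP1 and TYR are open in both melanocytic lines and neither other line, and no undifferentiated-side gene of the 12 shows the reverse in all 4 lists.

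In the RefSeq promoters, from 250 bases before the start to 50 after, AP-1 matches were more frequent on the undifferentiated side than over all genes, and near the share of all genes on the melanocytic side. TGANTCA occurred in 4.43% (95% interval 2.16 to 8.86) of the 158 melanocytic-side promoters with a sequence, 13.0% (9.33 to 17.7) of the 247 undifferentiated-side promoters and 5.76% of all 15812. CATGTG occurred in 15.8% (11.0 to 22.3), 6.88% and 8.43%, and CACGTG, the palindromic E-box that MITF and MYC bind, in 13.9% (9.38 to 20.2), 6.88% (4.34 to 10.7) and 8.87%. At equal length the AP-1 shares were 3.56% and 13.5%, and the CATGTG shares 10.4% and 9.22%, so the AP-1 difference kept its size and the CATGTG difference did not. ACAAAG or ACAATG, the SOX letters, occurred in 19.6%, 26.7% (21.6 to 32.6) and 19.3%, and GGAATG in 13.3%, 14.2% and 11.7%. At equal length CACGTG occurred in 16.4% (13.0 to 20.6) of melanocytic-side and 9.93% (6.01 to 16.0) of undifferentiated-side promoters. The SOX letters occurred there in 17.3% and 29.1% (22.2 to 37.0), and GGAATG in 10.7% and 15.6%. GC content was alike, with medians of 62.8% and 62.7% against 62.7% over all genes. A match says that the letters are present, not that a factor binds.

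**Figure D3:**
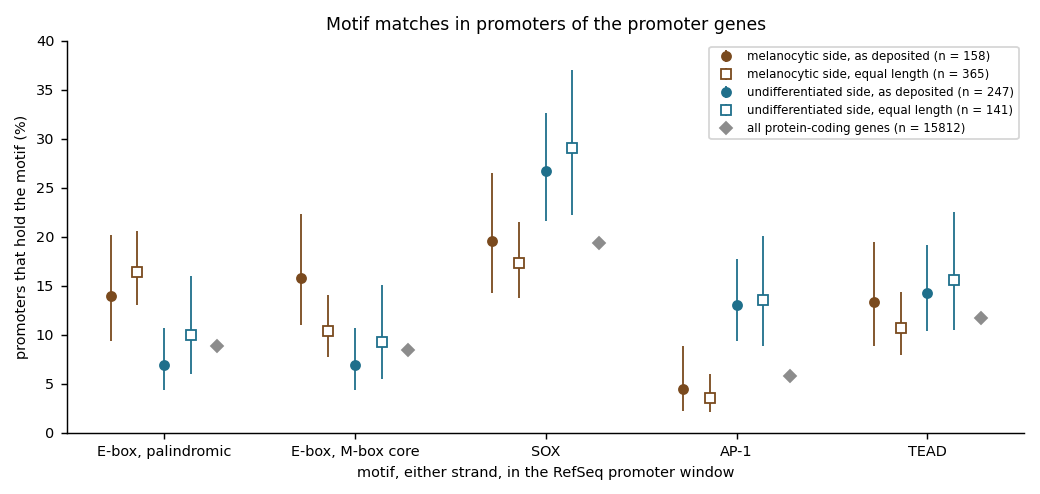
Share of promoters that hold each motif on either strand, in percent, with 95% Wilson intervals, for promoter genes of the melanocytic side (brown), of the undifferentiated side (blue) and for all protein-coding genes with a RefSeq promoter (grey); filled circles use the lists as deposited and open squares those of equal length. The AP-1 motif stands at 4.43% and 13.0% on the 2 sides, against 5.76% over all genes.

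The 12 strongest melanocytic-side regions were distal or intragenic apart from 1. The strongest, chr7:104786890-104811168 (hg38, inside LHFPL3), reached folds of 27.8 in 501mel and 92.6 in SKMEL-5. A region inside LRGUK (chr7:134209455-134217562) had 43.6 and 63.0, and one inside MERTK (chr2:112027341-112035074), the TAM-family receptor kinase, had 20.3 and 69.2. Others lay inside PLXNC1, a semaphorin receptor (chr12:94160999-94174117), and CREB5, a CREB-family factor (chr7:28579169-28585351), and over the RAD51B start (chr14:67819430-67824948). Between genes, a pair lay 27133 bp (chr7:95623649-95632336) and 71717 bp (chr7:95668233-95678759) from the start of PDK4, the kinase that inhibits pyruvate dehydrogenase, and 1 lay 643524 bp from SLC35B3 (chr6:9079069-9099811), the nearest protein-coding start. All 12 overlapped a 501mel CTCF region and 501mel and SKMEL-5 ATAC regions. Only the CREB5 region and the PDK4 pair overlapped no ATAC region of SKMEL-147 or A375-GFP. The others were open in at least 1 of those lines too. The region inside PDXDC1 (chr16:15011898-15017898) is uncertain, since that gene has near-identical copies on its chromosome, and the region 37400 bp from MET (chr7:116628274-116634796) had folds of 10.2 and 8.81 in the shNTC lists of A375.

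Of the 12 strongest undifferentiated-side regions, all were also in all 4 other A375 lists, and only the region 17197 bp from KRT80 (chr12:52140505-52151799) overlapped a CTCF region, with a fold of 11.8 in SKMEL-5. The region nearest to ASB7 (chr15:100685166-100690208) had folds of 25.2 in SKMEL-147 and 48.2 in A375-GFP, and that inside MALL (chr2:110099191-110108953), a MAL-family membrane protein gene, had 22.3 and 48.1. Further regions lay inside MYOF, the membrane repair protein myoferlin (chr10:93467338-93476219), THSD4 (chr15:71292914-71298443), MYH15 (chr3:108469130-108474325) and BTBD9 (chr6:38258330-38265264). The IGFBP1 region (chr7:45882494-45888930) spanned an end of that gene. TFAP2C, an AP-2 transcription factor, had a region 10 bp from its start (chr20:56629316-56638578), and 1 region 1611 bp from ITGA3 (chr17:50046043-50054499) had 17.3 and 23.2. The region 31736 bp from HAS3, a hyaluronan synthase gene, lay inside TANGO6 (chr16:69071147-69075804).

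The genes nearest to the most side regions are described line by line. They were chosen from the same K27ac lists, so the order of the lines is largely fixed by that choice and is a description. SOX6, a SOX-family factor, was nearest to 14 melanocytic-side regions (15 at equal length), and at equal length 69 K27ac regions of 501mel and 36 of SKMEL-5 lay within 50 kb of it, against 4 of SKMEL-147 and 7 of A375-GFP. SLCO5A1, a transporter-family gene, had 43 and 31 against 0 and 1. EDNRB, the endothelin receptor of the melanocyte lineage, had 29 and 25 against 5 and 6, and TNFAIP3, the NF-kappaB inhibitor A20, had 16 and 14 against 0 and 1. At equal length CPEB2, NEDD4L, PAG1, SGK1 and DLGAP1 had the same order. In the deposited lists NEDD4L and SGK1 did not, with 109 regions in 501mel and 46 in SKMEL-5, against 59 in SKMEL-147 and 117 in A375-GFP, for NEDD4L and 21 and 12 against 10 and 26 for SGK1. In SEMA5A, a semaphorin gene, 1 line led: 162 regions in 501mel and 21 in SKMEL-5, against 18 in SKMEL-147 and 1 in A375-GFP. ZEB2, a zinc-finger factor of the lineage, was similar (49 and 10 against 11 and 9), so its lines overlapped.

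On the undifferentiated side KCNMA1, the BK potassium channel gene, had 0 regions in 501mel and 2 in SKMEL-5, against 89 in SKMEL-147 and 28 in A375-GFP. CRIM1, a BMP-binding membrane protein, had 3 and 1 against 52 and 28. RUNX1, a runt-family factor, had 0 and 5 against 29 and 16, TNC, the matrix protein tenascin C, 0 and 5 against 22 and 19, and CDH13, the cadherin without a transmembrane part, 0 and 5 against 22 and 45. The actin crosslinker gene ACTN1, EXT1, HMGA2 and SCHIP1 had the same order, with both melanocytic lines below both others. MYC was nearest to 23 regions, 12 at equal length, yet no undifferentiated-side region lay within 50 kb of it, since they were in the noncoding gene PVT1 and beyond; PPP1R17 (23 and 9) was likewise only the nearest gene.

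**Figure D4:**
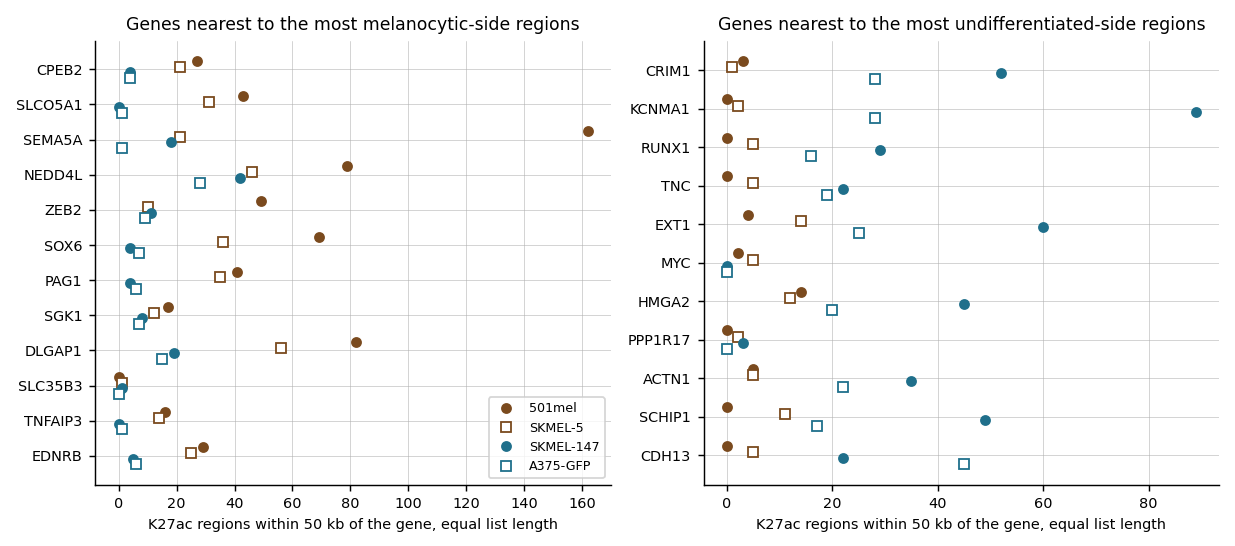
K27ac regions within 50 kb of genes nearest to the most melanocytic-side regions (left) and undifferentiated-side regions (right), in lists of equal length, per line (brown circle 501mel, brown open square SKMEL-5, blue circle SKMEL-147, blue open square A375-GFP). The genes were chosen from these lists, so that their own side stands higher is largely given by the choice; ZEB2, SLC35B3, MYC and PPP1R17 do not show that order.

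Groups of genes were counted by whether a side region lay within 50 kb of the gene body. Among all protein-coding genes 16.4% had a melanocytic-side and 39.3% an undifferentiated-side region among the deposited lists, and 23.6% and 23.2% at equal length. The counts below are at equal length unless stated, because there the share over all genes was alike on both sides. The regions were less alike. Of the melanocytic-side regions 31.1% overlapped a weaker region of the full A375-GFP list. Of the undifferentiated-side regions 3.74% overlapped one of 501mel. The part of this in the counts was not tested. At this length 3620 genes had melanocytic-side regions alone, 3543 undifferentiated-side regions alone, 1086 both and 11725 neither. Long genes have more room for regions, and neighbouring genes share them; the median gene spanned 24.2 kb. GPHN, the scaffold gephyrin, NEDD4L, a ubiquitin ligase, and PDE4D, a cAMP phosphodiesterase, had regions of both sides within 50 kb, with 13 and 11, 16 and 10, and 14 and 8 of the melanocytic and undifferentiated sides among the deposited lists. At equal length they had 14 and 3, 17 and 2, and 18 and 5.

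Pigment genes lay mostly on the melanocytic side, and since the lines are named by such genes this is no independent evidence of direction. A melanocytic-side region lay near 18 of 20 pigment and melanosome genes and an undifferentiated-side region near 3. TRPM1, an ion channel of melanocytes, had 11 melanocytic-side regions, RAB38 8, and DCT and TYRP1, both melanin enzymes, 7 each. Lineage factors followed with 10 and 4 of 16: SOX6 had 15, MITF 11, EDNRB 9 and the homeobox factor ALX1 7, while SOX5, a close relative of SOX6, had 8 on the undifferentiated side. The neural crest-like state had 3 and 2 of 16.

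Groups outside pigmentation also had more genes on the melanocytic side at equal length. For cAMP and calcium signalling 18 of 30 genes had a melanocytic-side and 12 an undifferentiated-side region, with PDE4D at 18 regions, the phospholipase gene PLCB4 at 12, and the adenylyl cyclase gene ADCY2 and the phosphodiesterase gene PDE3A at 8 each. These genes are long, with a median span of 369.4 kb, and PDE1C, a calmodulin-dependent phosphodiesterase, had 15 undifferentiated-side regions. Lysosome and autophagy genes had 13 and 8 of 31, led by the amino acid transporter SLC7A5 (5), FNIP2 and RRAGD, both of the lysosomal MTORC1 pathway (2 each). Survival and cell cycle genes had 11 and 6 of 29, with BCL2A1, an anti-apoptotic MITF target, at 3, although CDK6, a G1 kinase, had 10 on the undifferentiated side. Among the deposited lists the order of the sides was the other way for these groups (13 and 18, 8 and 15, 6 and 13), as it was over all genes. Their shares there were 43.3% and 60.0%, 25.8% and 48.4%, and 20.7% and 44.8%, against 16.4% and 39.3% over all genes. Tumour antigens had 6 and 0 of 20, from 11 regions at 3 of 16 loci. They were GAGE, MAGEA and CSAG genes on the X chromosome, whose near-identical copies make the placing of reads uncertain.

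Adhesion lists differed in direction. Integrins had a melanocytic-side region near 3 and an undifferentiated-side region near 11 of 19. Among the deposited lists 4 of the 19 were undifferentiated-side promoter genes, against 1.87% of all genes. ITGA3 had 6 regions, ITGA2, the collagen receptor subunit, and ITGB5 5 each, and ITGB8, which activates TGF-beta, 4. Collagens had 3 and 11 of 20, with COL27A1, COL4A2 and COL5A2 at 3 each. The melanocytic exceptions were COL15A1 with 3 and, among other matrix genes (9 and 13 of 27), HMCN1, encoding hemicentin, with 12 and the laminin chain gene LAMA1 with 9. Cadherins and other cell adhesion genes had 4 and 7 of 22, with CDH13 at 13 undifferentiated-side regions. Synaptic and axonal adhesion genes went the other way, with 12 and 8 of 28, and ROBO1, a Slit receptor gene, had 7 melanocytic-side regions. These are long genes (median span 708.9 kb). Lists of the other direction were long too, with median spans of 157.7 kb for cadherins, 115.1 kb for collagens and 81.7 kb for integrins. S100 proteins, annexins and galectins had 2 and 14 of 22. Because the S100 genes sit in 1 cluster, those 22 genes form 14 loci, of which 7 had a region; ANXA2 had 6 and ANXA1, an anti-inflammatory annexin, 5.

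Genes of the undifferentiated and invasive state had 2 and 16 of 25. Among the deposited lists 10 of the 25 were undifferentiated-side promoter genes, against 1.87% of all genes. TNC had 7 regions, the lysyl oxidase gene LOXL2 6, NT5E, which makes adenosine, 4 and the receptor kinase AXL 3; FN1, the fibronectin gene, went against them with 5 melanocytic-side regions. Factors of AP-1 and TEAD-YAP had 6 and 10 of 20, with FOSL1, an AP-1 subunit, at 4 and YAP1 at 3, and epithelial-mesenchymal factors 5 and 8 of 14, with RUNX1 at 8 and CDH2, encoding N-cadherin, at 5. HOX genes had 3 and 25 of 39. These counts rest on few regions, since the 4 HOX clusters are dense: 2 melanocytic-side and 3 undifferentiated-side regions lay behind them.

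Signals to other cells were also more often undifferentiated-side. Angiogenesis genes had 5 and 13 of 25, with the hypoxia factor HIF1A at 6 regions and the vessel growth factor gene ANGPT2 at 4. Chemokines and inflammatory cytokines had 4 and 10 of 31, with IL1A and IL1B, the interleukin-1 genes, at 4 each and the neutrophil chemokine gene CXCL2 at 3. NF-kappaB and death receptors had 5 and 11 of 25, although TNFAIP3 had 8 melanocytic-side regions. Interferon response genes were closer, at 10 and 13 of 29, and checkpoint ligands at 8 and 11 of 25. Of the growth pathways, TGF-beta and BMP genes (9 and 10 of 32) did not lean, yet SMAD3, the effector of TGF-beta receptors, had 16 undifferentiated-side regions. Receptor tyrosine kinases had 9 and 12 of 36, with DDR2, a collagen receptor, at 10 on the undifferentiated side and MERTK at 7 on the melanocytic side. EPHA3, an ephrin receptor counted with the ephrins below, had 10 melanocytic-side regions. WNT had 8 and 12 of 37, Notch 6 and 9 of 19, and nuclear receptors 6 and 10 of 27.

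Several groups did not differ by more than 2 genes between the sides: MAPK feedback and ETS genes (7 and 7 of 20), ephrins (5 and 5 of 18), potassium and chloride channels (10 and 10 of 23), solute carriers (12 and 12 of 29), mitochondrial and lipid genes (9 and 10 of 30) and semaphorins with their receptors (11 and 9 of 20). Single members were still far apart, such as KCNMA1 with 17 undifferentiated-side and the M-type channel gene KCNQ5 with 8 melanocytic-side regions, SLC16A6, a transporter gene next to a dense melanocytic-side cluster, with 12, and PPARGC1A, the mitochondrial coactivator that MITF activates, with 9. Housekeeping genes had 4 and 3 of 18. Markers of other cell types exceeded the share over all genes by less than 1 gene, where at all: keratinocyte 0 and 4 of 14, fibroblast 2 and 1, T cell 3 and 2, endothelium 2 and 3 and hepatocyte 1 and 2 of 12 each.

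**Figure D5:**
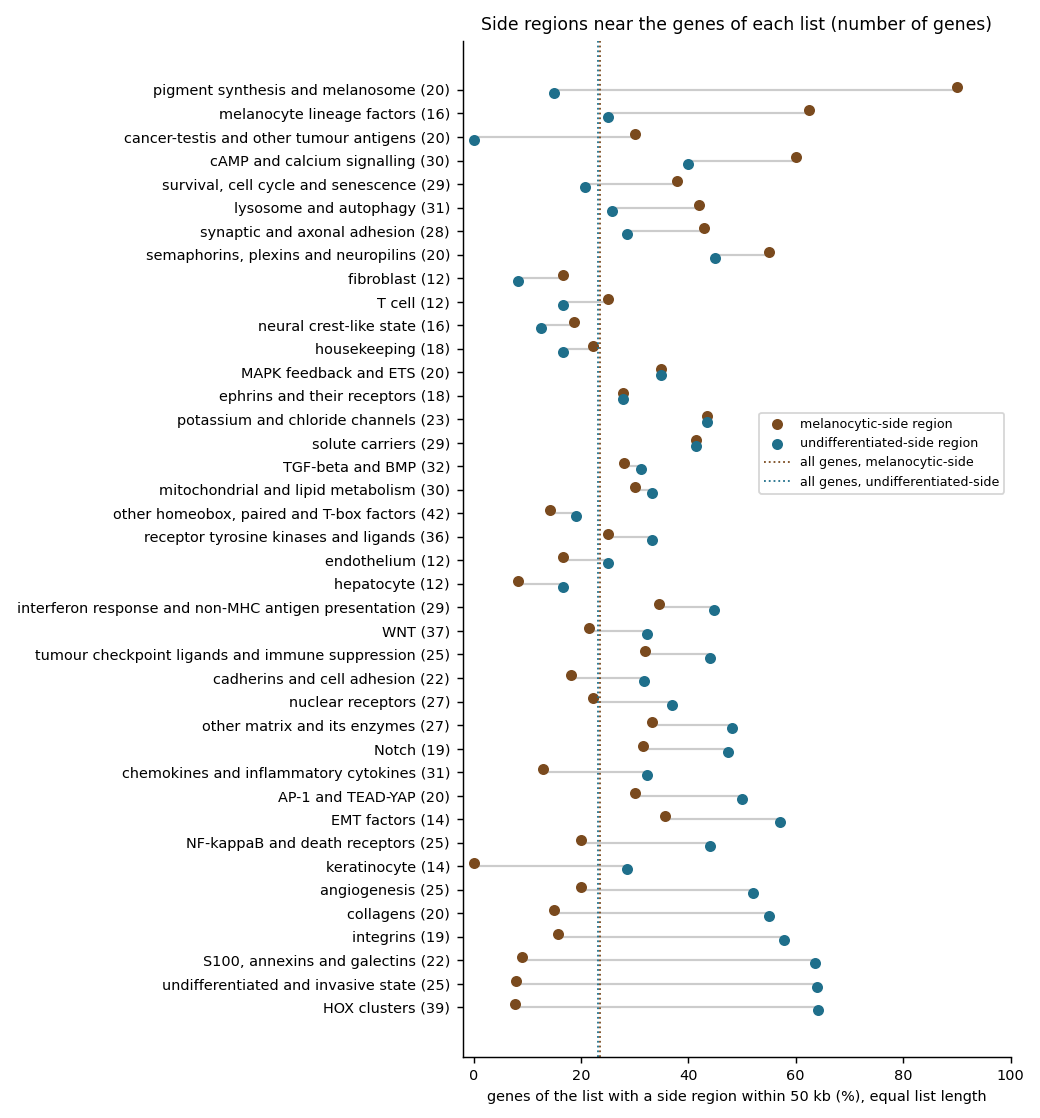
Share of the protein-coding genes of each list with a melanocytic-side region (brown) or an undifferentiated-side region (blue) within 50 kb, in percent, in K27ac lists of equal length, ordered by the difference; dotted lines give the shares over all genes, 23.6% and 23.2%. Pigment genes (18 and 3 of 20) stand at the top and HOX genes (3 and 25 of 39) at the bottom.

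The microRNA hairpins shown above were picked after their values had been seen. Of 1558 hairpins, 5 (0.321%) lay in a melanocytic-side and 26 (1.67%) in an undifferentiated-side region, and 13 (0.834%) and 20 (1.28%) at equal length. MIR221 (chrX:45746157-45746266) and MIR222 (chrX:45747015-45747124) lay in 1 undifferentiated-side region, chrX:45745828-45749175. Within 5 kb of MIR222 the strongest fold was 4.02 in 501mel and 6.15 in SKMEL-5, against 12.3 in SKMEL-147 and 9.37 in A375-GFP, so the melanocytic lines had acetylation close by. MIR193A (chr17:31559996-31560083, in region chr17:31559274-31562273) had no region of either melanocytic line within 5 kb, against folds of 3.97 in SKMEL-147 and 9.24 in A375-GFP. The let-7a-2, miR-100 and miR-125b-1 hairpins come from MIR100HG, whose body held 13 undifferentiated-side regions (10 at equal length). MIRLET7A2 (chr11:122146522-122146593, in region chr11:122144160-122148959) had folds within 5 kb of 3.83 in 501mel and 19.2 in SKMEL-5, against 7.57 in SKMEL-147 and 38.1 in A375-GFP, so its lines overlapped. MIR100 had folds within 5 kb of 4.41 in 501mel and 14.4 in SKMEL-5, against 4.13 in SKMEL-147 and 38.1 in A375-GFP. Its lines overlapped too. MIR125B1 (chr11:122099757-122099844) had none in the melanocytic lines, against 5.77 in SKMEL-147 and 5.57 in A375-GFP, and its region was a side region among the deposited lists alone.

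The melanocytic-side cluster of MIR23B, MIR27B and MIR24-1 (region chr9:95084936-95087130) was found at equal length alone. Its strongest folds near MIR23B were 8.97 in 501mel and 20.1 in SKMEL-5, against none in SKMEL-147 and 4.05 in A375-GFP, whose weaker region was removed when the lists were shortened. MIR211, which lies in an intron of TRPM1 and is known as a melanocyte microRNA, had no side region within 5 kb and a fold of 3.30 in 501mel alone.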

How the data were processed

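All samples are human melanoma lines, and the deposited region lists were used as the authors made them. The tools named per the submitters' processing notes are MACS2, Bowtie2, Trim Galore, deepTools and SAMtools, and the genome build is hg38; versions, parameters and the control behind each list are not given in the sources used here. Of 21 libraries, 15 lists were analysed; IgG and A375-GFP-HA libraries entered no comparison. Each deposited narrowPeak list gives a score, a fold over background as a linear ratio, −log10 p and −log10 q per region, all called per library. The score and the −log10 p were not used; −log10 q, then fold, ranked regions within a list. The files give no read counts, so depth is unknown.

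Regions on autosomes and X were merged at 1 bp overlap with Python 3.11.15, numpy 2.4.6 and pandas 2.3.3; scipy 1.17.1 gave the Wilson intervals. The overlap code was tested on simulated data. Protein-coding genes (19974) came from RefSeq, and a gene acetylated at its start had a region within 1 kb of it; for 4162 genes without a start in the promoter table both gene ends were used. Named by rule were, per side, the 12 strongest regions and promoter genes (strength is the smaller of the 2 within-list fold percentiles), the 12 genes nearest to the most regions, up to 4 members of each list and the 10 densest windows of 1 Mb; genes in the text beyond it were chosen after their values were seen. The 41 gene lists, of which 976 of 979 genes matched, and the regions themselves were chosen with earlier results of these data known. Some genes and a list that the rule names are not reported here. Alternatives covered list length, threshold, overlap, region shape and the libraries used. Sequences under the regions were not used here, since no genome of this build was at hand.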

Additional observations from a re-analysis of the deposited data

How the results depend on the processing

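No test was run with 2 lines a side, so a result is described by how far its value moved. As deposited there were 4047 and 12430 regions, 212 and 373 promoter genes and strict open shares of 15.8% and 34.6% on the melanocytic and undifferentiated sides. At equal list length the promoter genes became 487 and 214, the undifferentiated-side regions 5133 and the open shares 13.1% and 44.0%. At equal covered length they became 875 and 165, 3406, and 12.9% and 44.5%. With a −log10 q of at least 10 there were 1826 and 2502 regions, 144 undifferentiated-side promoter genes and open shares of 18.1% and 36.9%. Other settings moved the open shares alone, apart from a drop to 98 melanocytic-side promoter genes when absence from both A375-shNTC lists was added. These open shares were 35.5% on the undifferentiated side with 50% overlap, 9.56% and 30.7% with 500-bp windows, 17.5% and 36.8% with a 1 kb gap, 16.9% and 44.4% with A375-shNTC replicate 1 in place of A375-GFP, 44.8% on the undifferentiated side with replicate 2, 19.0% and 42.5% with both added, and 27.3% and 23.5% with ATAC lists of equal length. Which side had more regions and promoter genes turned round at equal list and covered length, for promoter genes also at the −log10 q minimum, and for regions or promoter genes without 501mel, SKMEL-5 or A375-GFP. Leaving out each line in turn gave 4771 to 29159 and 14205 to 101109 regions, 249 to 1941 and 408 to 2621 promoter genes, and open shares of 2.33% to 13.8% and 10.2% to 32.0%, since fewer lists have to agree. Promoter genes had no value under the 50% overlap. No paired analysis was possible because no result comes from a test and each line has 1 library. Depth limits cannot be given from lists without counts.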

Other observations

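Side regions were also unevenly spread along the genome. At equal length the melanocytic-side share of merged regions was highest on chromosome 18 (8.23%, against 4.06% undifferentiated-side), chromosome 6 (7.90% and 3.59%), chromosome 7 (7.18% and 4.13%) and chromosome 22 (6.89% and 2.66%). It was low on chromosome 19 (2.20% and 4.94%) and chromosome 20 (3.18% and 6.29%). The densest melanocytic-side window of 1 Mb, with 28 regions both as deposited and at equal length, holds SLC16A6, a monocarboxylate transporter-family gene, and AMZ2 on chromosome 17. The window of CRIM1 on chromosome 2 was the densest of the undifferentiated side, with 51 regions (17 at equal length). The window of NEDD4L on chromosome 18 held 16 melanocytic-side and 20 undifferentiated-side regions among the deposited lists. A window of the X chromosome with GAGE genes held 14 melanocytic-side regions and is uncertain because of their near-identical copies.

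Long noncoding RNA genes held side regions too. Of 18177 such genes, 556 had a melanocytic-side and 1374 an undifferentiated-side region in the gene body among the deposited lists, and 707 and 795 at equal length. The most melanocytic-side regions were in C1QTNF7-AS1 (10, and 11 at equal length), LINC01317 (9 and 8), MIR3681HG and TEX41 (8 and 8 each). On the undifferentiated side PVT1, downstream of MYC, held 20 (10 at equal length), LOC105370777 21 (10), MIR100HG 13 (10), IPO9-AS1 12 (3), OSMR-DT, beside the oncostatin M receptor gene, 9 (6) and HIF1A-AS3, beside HIF1A, 9 (5). These genes were chosen after their values had been seen, and antisense genes share their regions with the gene on the other strand.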
